A study of Mus musculus with 3 samples.

Results

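Granins and prohormone processing genes build and fill the dense-core vesicles of neurons. They are described here in neuronal nuclei sorted out of mouse lateral habenula (LHb) dissections. The set was fixed by name and holds 10 of the 32285 genes listed in the count table: the granins Chga, Chgb, Scg2 and Scg3, the convertase chaperone Scg5, the prohormone convertases Pcsk1 and Pcsk2, the convertase inhibitor precursor Pcsk1n, the carboxypeptidase Cpe and the amidating enzyme Pam. All 10 were detected. They had 22292 UMIs (unique molecular identifiers, each marking a captured transcript) of the 7532914 UMIs of neuronal nuclei.

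Neuropeptides are made as long precursors that are sorted into dense-core vesicles at the trans-Golgi network. Granins are acidic proteins that condense with calcium in this compartment, help to form the vesicle core and are themselves cut into peptides such as secretoneurin from Scg2. Convertases cut precursors after paired basic residues, Cpe trims those residues from the new ends, and Pam turns a terminal glycine into the amide that many neuropeptides need for activity. The LHb is an epithalamic nucleus of mostly glutamatergic neurons, known for its part in aversion.

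Many genes of this pathway are known to respond to cyclic AMP through a promoter element, the CRE, so the stretch around its letters is shown for the members that carry them. RefSeq promoter windows of GRCm38.p6 reach from 250 bases before to 50 bases after a gene's start, and 9 of the 10 genes matched one, all but Cpe. The palindrome TGACGTCA, which reads the same on both strands, lay in the windows of 3 members, Chgb, Scg2 and Pcsk1, and in 1.79% of all 32851 windows. Its first 5 letters alone, TGACG, searched on both strands and overlapping the palindrome, lay in the windows of 7 members, those 3 and Chga, Scg3, Scg5 and Pcsk2, and in 20.8% of all windows. TGACGTCA and TGACG each hold the letters CG. The 10 windows of members, 2 of them of Pam, had a median of 19.5 CG pairs and 60.3% G and C. All windows had medians of 7 and 52.7%, so their shares come from a set with fewer CG pairs, and no excess was tested. Capitals mark the palindrome in the first 3 stretches and TGACG in that of Chga, which had a single match.
Chgb: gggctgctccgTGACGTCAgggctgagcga
Scg2: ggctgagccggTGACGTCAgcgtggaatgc
Pcsk1: ccaggtagatcTGACGTCAagagatggctt
Chga: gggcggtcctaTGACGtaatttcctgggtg
The Chgb stretch is chr2:132781559-132781588 on the plus strand, and its motif begins 72 bases before the RefSeq start. That of Scg2 is chr1:79440076-79440105 on the minus strand, with the motif 68 bases before the start. Pcsk1 has its stretch at chr13:75089768-75089797 and Chga at chr12:102554886-102554915, both on the plus strand, with motifs 78 and 44 bases before the start. In GENCODE M21 the Chgb and Scg2 stretches fall in the 5′ UTR of a longer first exon, while the Pcsk1 and Chga stretches lie outside the annotated gene. A match of letters is a description and does not show that a factor binds there.

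Neurons were the class with nearly all nuclei, 592 of 603. Groups were mothers (sexually experienced females), virgin males and virgin females, each a single library of 3 pooled mice. The labels call the sorted cells KASH-GFP+ BNST LHb neurons, where KASH-GFP marks the nuclear envelope with green fluorescence and BNST stands for a limbic forebrain nucleus, the bed nucleus of the stria terminalis. Age, strain and the route of the fluorescent label into the cells are not stated.

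Libraries held 201 neuronal nuclei in mothers, 204 in virgin males and 187 in virgin females, with 2691639, 2122919 and 2718356 UMIs and medians of 11898, 9414 and 13181 UMIs per nucleus. No cell barcode was shared between libraries. Levels are CPM, the gene's UMIs over all neuronal UMIs times 1000000, and 95% intervals are exact and cover counting error only. With 1 library per group there is no test between groups, and variation between mice cannot be seen. The authors' clusters 0 to 4 were made from the same nuclei and genes, so differences between clusters are descriptions. Clusters 0, 2 and 3 carried more of the 6 fixed thalamic markers (7049 ± 329, 8215 ± 346 and 10602 ± 343 CPM summed, SD over 3 libraries) than clusters 1 and 4 (2085 ± 195 and 1316 ± 435 CPM). The 6 LHb markers ran the other way, with 1931 ± 581 and 1807 ± 145 CPM in clusters 1 and 4, against 889 ± 80.5, 1157 ± 202 and 1176 ± 333 CPM in clusters 0, 2 and 3. All 6 genes of each list were detected. GABAergic markers summed to 74.5 and 132 CPM in clusters 1 and 4, and to at most 8.37 CPM in clusters 0, 2 and 3. In the library of virgin males, 5 nuclei held at least 10 UMIs of Ttr, a gene of the choroid plexus, and markers of ependyma and choroid plexus summed to 353 CPM there, against 2.60 CPM in the library of mothers and 1.47 CPM in that of virgin females.

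Across clusters, the set did not move as a block. Pam, Pcsk1n and Chga were highest in cluster 1, Scg2, Scg3 and Pcsk1 in cluster 4, and Pcsk2 in cluster 0, while Chgb, Scg5 and Cpe changed little. Of the 8 members with at least 500 UMIs, 5 differed at least 2-fold from their highest to their lowest cluster, against 35.3% of 2905 genes with as many UMIs. Their median ratio of highest to lowest cluster was 3.06, beside a median of 1.66 over all those genes. With a minimum of 50 UMIs, 7 of 10 members differed at least 2-fold, where 48.4% of 11467 genes did. With a minimum of 2000 UMIs 2 members did, Pcsk2 and Pam, where 52.6% of 561 genes did. Cpe and Scg5, with 2968 and 2055 UMIs, did not. Scg3 with 325 UMIs and Pcsk1 with 210 fell under the minimum and are given as values only. Cluster levels below are means of the 3 libraries ± SD (n = 3), so each library counts the same. These differences run beside the thalamic and LHb marker sums above, whose part in them was not tested.

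**Figure D1:**
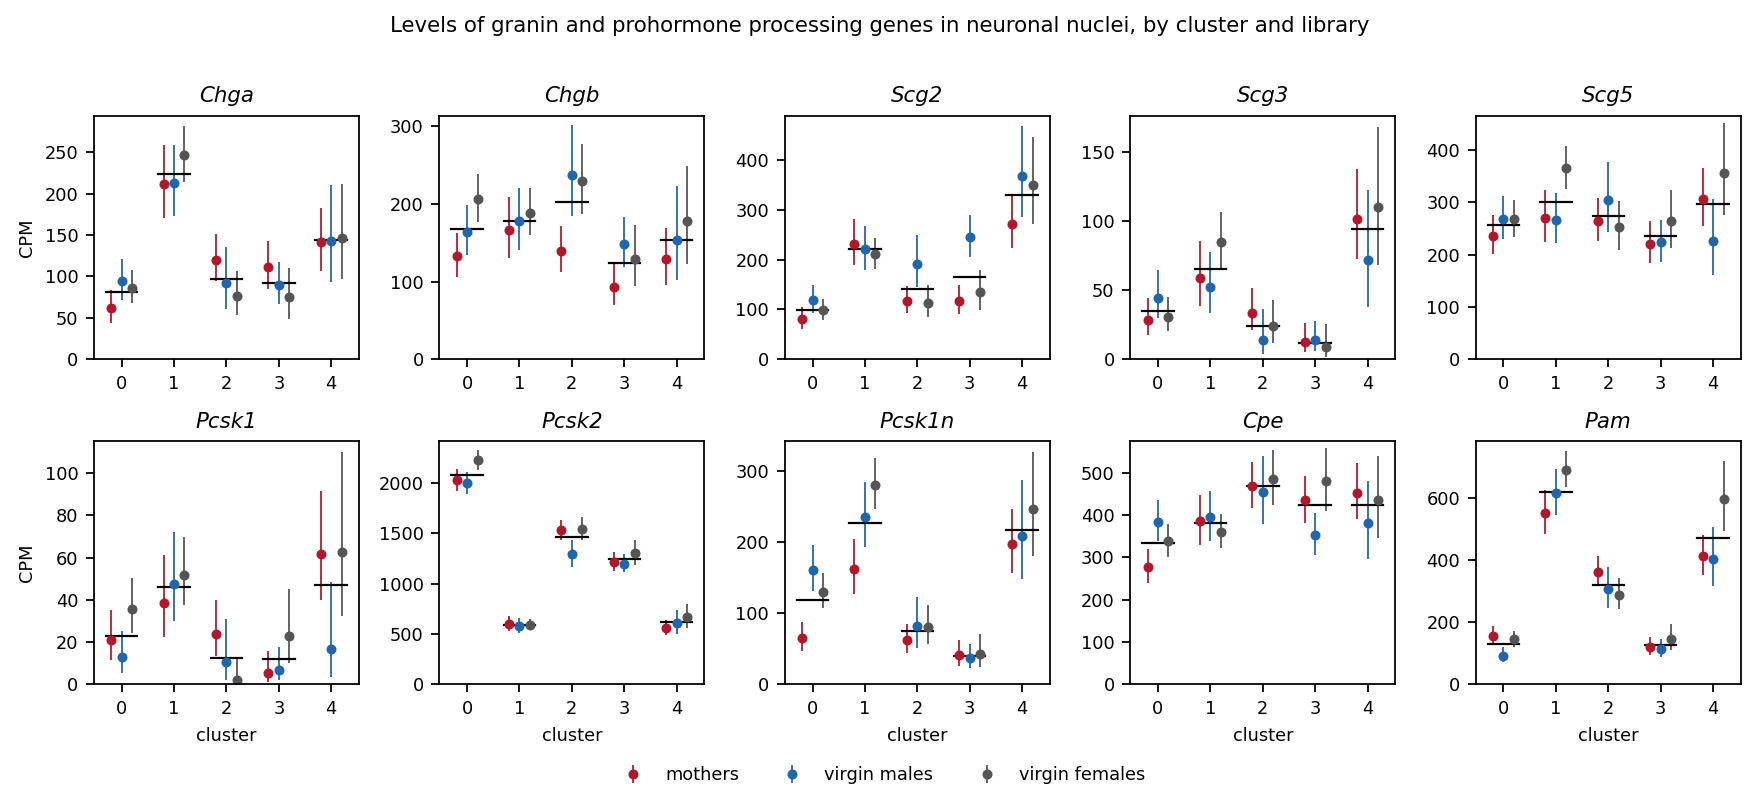
CPM of each gene in neuronal nuclei (y axis, own scale for each gene) by cluster (x axis). Points are the libraries of mothers, virgin males and virgin females with 95% Poisson intervals, and black bars the mean of the 3. Pam and Chga peak in cluster 1, Scg2 and Scg3 in cluster 4 and Pcsk2 in cluster 0 in all 3 libraries, and Scg5 and Cpe are nearly level.

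Chga encodes chromogranin A, the founding granin, on chr12:102554969-102565028 (plus strand, GRCm38). In cluster 1 it had 212 CPM in mothers, 212 CPM in virgin males and 246 CPM in virgin females. In cluster 0, its lowest, it had 61.8 CPM in mothers, 94.2 CPM in virgin males and 85.9 CPM in virgin females. These values do not overlap, and the mean of cluster 1 (223 ± 19.9 CPM) was 2.77 times that of cluster 0 (80.6 ± 16.8 CPM). Cluster 4 came next with 144 ± 2.80 CPM, below cluster 1 and above the rest by more than the spread. Clusters 2 (96.4 ± 22.3 CPM), 3 (91.8 ± 18.4 CPM) and 0 differed by less than the spread between libraries.

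Chgb, chromogranin B, on chr2:132781278-132795079 (plus strand), was the flattest granin, with 202 ± 54.4 CPM in cluster 2 and 124 ± 28.1 CPM in cluster 3, a ratio of 1.63. Clusters 1 (178 ± 11.0 CPM), 0 (168 ± 36.9 CPM) and 4 (154 ± 24.7 CPM) lay between, each within the spread of its neighbour. Only the gap from cluster 4 to cluster 3 exceeded it. The number of Chgb UMIs per Chga UMI ran from 2.25 ± 0.964 in cluster 2 and 2.10 ± 0.330 in cluster 0 to 0.797 ± 0.0365 in cluster 1.

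Scg2 encodes secretogranin II, the source of secretoneurin, on chr1:79434669-79440120 (minus strand). Its level in cluster 4 was 272 CPM in mothers, 369 CPM in virgin males and 351 CPM in virgin females. Cluster 0 had 79.8, 118 and 98.5 CPM in the same order of libraries. Cluster 4 was the highest and cluster 0 the lowest in all 3 libraries, and the means, 331 ± 51.4 and 98.8 ± 19.1 CPM, differed 3.35-fold. Cluster 1 followed cluster 4 with 221 ± 10.5 CPM. In clusters 3 (166 ± 69.2 CPM) and 2 (141 ± 44.2 CPM) virgin males stood at 245 and 192 CPM, above mothers (117 and 117 CPM) and virgin females (135 and 113 CPM).

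Scg3, secretogranin III, is a granin that ties Chga aggregates to the cholesterol-rich vesicle membrane. The gene lies on chr9:75643189-75684056 (minus strand). In cluster 4 it had 101 CPM in mothers, 71.6 CPM in virgin males and 110.0 CPM in virgin females, against 12.6, 14 and 8.63 CPM in cluster 3. Cluster 4 was thus 8.04 times cluster 3 (94.4 ± 20.1 and 11.7 ± 2.78 CPM), although cluster 3 rests on 18 UMIs. Clusters 1 (65.1 ± 17.4 CPM), 0 (34.7 ± 8.69 CPM) and 2 (24 ± 9.75 CPM) fell between, each apart from the next by more than the spread.

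Scg5 encodes the chaperone that the proenzyme of Pcsk2 needs to become active, on chr2:113776362-113829121 (minus strand). It ranged only from 301 ± 56.1 CPM in cluster 1 to 237 ± 24.5 CPM in cluster 3, a ratio of 1.27, and no neighbouring clusters in that order differed by more than the spread. Its client did not follow it. Pcsk2, the convertase PC2 that completes the cutting of many neuropeptide precursors, lies on chr2:143546156-143816285 (plus strand) and had 2024 CPM in mothers, 1994 CPM in virgin males and 2222 CPM in virgin females in cluster 0. Cluster 1 had 599, 581 and 591 CPM in the same libraries. The mean of cluster 0 (2080.2 ± 124 CPM) was 3.52 times that of cluster 1 (590.1 ± 9.30 CPM). Clusters 2 (1457 ± 139 CPM) and 3 (1239.5 ± 58.3 CPM) were intermediate, and cluster 4 (614 ± 55.5 CPM) was as low as cluster 1. The number of Scg5 UMIs per Pcsk2 UMI was therefore highest in clusters 1 (0.510 ± 0.0946) and 4 (0.483 ± 0.0989), and 0.124 ± 0.00932 in cluster 0. Antisense transcripts Pcsk2os1 and Pcsk2os2 overlap Pcsk2 and had 272 and 509 UMIs, against 9875 for Pcsk2. No source used here says whether counting used strand, so reads of the overlap cannot be told apart.

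Pcsk1 encodes PC1/3, the convertase that makes the early cuts in many precursors, on chr13:75089826-75134861 (plus strand). Means were 47.1 ± 26.5 CPM in cluster 4 and 45.9 ± 6.95 CPM in cluster 1, which did not differ beyond the spread. Cluster 0 had 23.1 ± 11.5 CPM, and clusters 2 and 3 had 12.3 ± 11.0 and 11.8 ± 9.75 CPM from 19 and 15 UMIs. The ratio of cluster 4 to cluster 3, 3.99, depended on the library: on the log2 scale it was 1.996, and 1.40 without mothers and 2.66 without virgin females. Per UMI of Pcsk2, Pcsk1 had 0.0779 ± 0.0125 UMIs in cluster 1 and 0.0771 ± 0.0442 in cluster 4, against 0.0109 ± 0.00480 in cluster 0, 0.00845 ± 0.00716 in cluster 2 and 0.00930 ± 0.00724 in cluster 3. A difference in this ratio between clusters does not depend on gene length, since both genes are the same throughout.

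Pcsk1n encodes proSAAS, a granin-like precursor whose peptide inhibits PC1/3, on chrX:7919822-7924410 (plus strand). In cluster 1 it had 162 CPM in mothers, 236 CPM in virgin males and 281 CPM in virgin females. Cluster 3 had 41.3, 36.7 and 43.2 CPM, and no library of cluster 3 came near any of cluster 1. The means, 226 ± 59.8 and 40.4 ± 3.31 CPM, differed 5.60-fold. Cluster 4 (218 ± 25.2 CPM) was level with cluster 1 within the spread. Cluster 0 had 119 ± 49.3 CPM and cluster 2 had 75.0 ± 10.8 CPM. By mean CPM, enzyme and inhibitor thus shared their high clusters, although Pcsk1 had 16.5 CPM from 3 UMIs in cluster 4 of virgin males. The number of Pcsk1n UMIs per Pcsk1 UMI was 4.87 ± 0.592 in cluster 1 and 6.59 ± 5.27 in cluster 4. In clusters 0, 2 and 3 it was 6.46 ± 5.35, 15.8 ± 18.6 and 4.93 ± 2.91, so it did not set clusters 1 and 4 apart.

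Cpe, carboxypeptidase E, on chr8:64592542-64693054 (minus strand), was near its overall level in every cluster, from 469 ± 14.9 CPM in cluster 2 to 334 ± 54.0 CPM in cluster 0, a ratio of 1.41. Clusters 3 (423 ± 64.4 CPM), 4 (423 ± 37.9 CPM) and 1 (380.1 ± 17.3 CPM) lay between, and only the gap from cluster 4 to cluster 1 exceeded the spread. Pam, peptidylglycine alpha-amidating monooxygenase, on chr1:97795114-98095646 (minus strand), was far from level. Cluster 1 had 552 CPM in mothers, 615 CPM in virgin males and 691 CPM in virgin females. Cluster 3 had 120.4, 114 and 147 CPM, and cluster 0 had 155, 92.6 and 145 CPM. Cluster 1 (619 ± 69.6 CPM) was 4.88 times cluster 3 (127 ± 17.5 CPM), which did not differ from cluster 0 (131 ± 33.7 CPM) beyond the spread. Clusters 4 (471 ± 109 CPM) and 2 (318 ± 38.1 CPM) were intermediate and apart from their neighbours. A noncoding gene on the same strand, B230216N24Rik, overlaps Pam and had 129 UMIs against 2383.

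Taking each cluster against the mean of the other 4, members with at least 500 UMIs split as follows. In cluster 1, Pam (2.37-fold), Chga (2.17-fold) and Pcsk1n (2.002-fold) were at least 1.5-fold higher, 3 of 8 members where 8.92% of genes were, and Pcsk2 was lower (0.438-fold), where 15.5% of genes were. Cluster 4 had Scg2 (2.11-fold), Pcsk1n (1.89-fold) and Pam (1.58-fold) above the others, 3 of 8 where 8.16% of genes were, and Pcsk2 below (0.457-fold; 18.2% of genes). Cluster 0 had only Pcsk2 above (2.13-fold; 8.26% of genes) and 3 below, Chga (0.581-fold), Scg2 (0.460-fold) and Pam (0.341-fold), where 8.92% of genes were. In cluster 2, Pcsk1n was below (0.497-fold; 8.16% of genes), and in cluster 3 Pcsk1n (0.253-fold) and Pam (0.330-fold) were, where 13.6% of genes were. No member was 1.5-fold above the others in clusters 2 and 3, where 6.4% and 11.2% of genes were. The median log2 ratio of the 10 members to the other clusters was 0.46 in cluster 1 and 0.44 in cluster 4, and -0.34, -0.28 and -0.53 in clusters 0, 2 and 3. Over all genes with at least 500 UMIs these medians were 0.01, 0.00, -0.01, -0.06 and -0.07 in the same order of clusters. The sets are unlike, since that of the members holds Scg3 and Pcsk1, which are under this minimum. Log2 ratios of Scg3 and Pcsk1 were 0.66 and 0.96 in cluster 1 and 1.48 and 1.02 in cluster 4. They were -0.49 and -0.34 in cluster 0, -1.10 and -1.38 in cluster 2, and -2.22 and -1.44 in cluster 3. A median without these genes is not given.

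Shares of nuclei with a UMI were compared at equal depth. Each nucleus was thinned to 5000 UMIs, which left out 14 nuclei of mothers, 30 of virgin males and 15 of virgin females and kept 533. Pam was then found in 85.8% of nuclei of cluster 1 (95% Clopper-Pearson interval 78.5 to 91.4) and 78.3% of cluster 4, against 42.2% of cluster 0 and 42.7% of cluster 3. Before thinning these shares were 92.4%, 93.3%, 57.0% and 68.1%. Pcsk1n was in 72.5% of thinned nuclei of cluster 4 (60.4 to 82.5), 59.1% of cluster 1 (49.98 to 67.7) and 23.6% of cluster 3 (15.2 to 33.8). Before thinning these shares were 86.7%, 78.3% and 44.0%. By share cluster 4 stood above cluster 1, but their intervals overlapped, and mean CPM had them level. Cpe was in 79.8% of cluster 2 and 85.1% of cluster 0, its highest and lowest clusters by CPM. Scg3 was in 34.8% of thinned nuclei of cluster 4 (23.7 to 47.2) and 5.62% of cluster 3 (1.85 to 12.6), and in 52.0% and 18.7% before. Pcsk2 was found in 100% of thinned nuclei of clusters 0 and 3, and in 78.7% of cluster 1 (70.6 to 85.5). Pcsk1 was in 26.1% of cluster 4 and 20.5% of cluster 1, and in 5.84%, 4.26% and 4.49% of clusters 0, 2 and 3. A thinned nucleus held UMIs of a median of 5 of the 10 genes, with a range of 2 to 10.

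**Figure D2:**
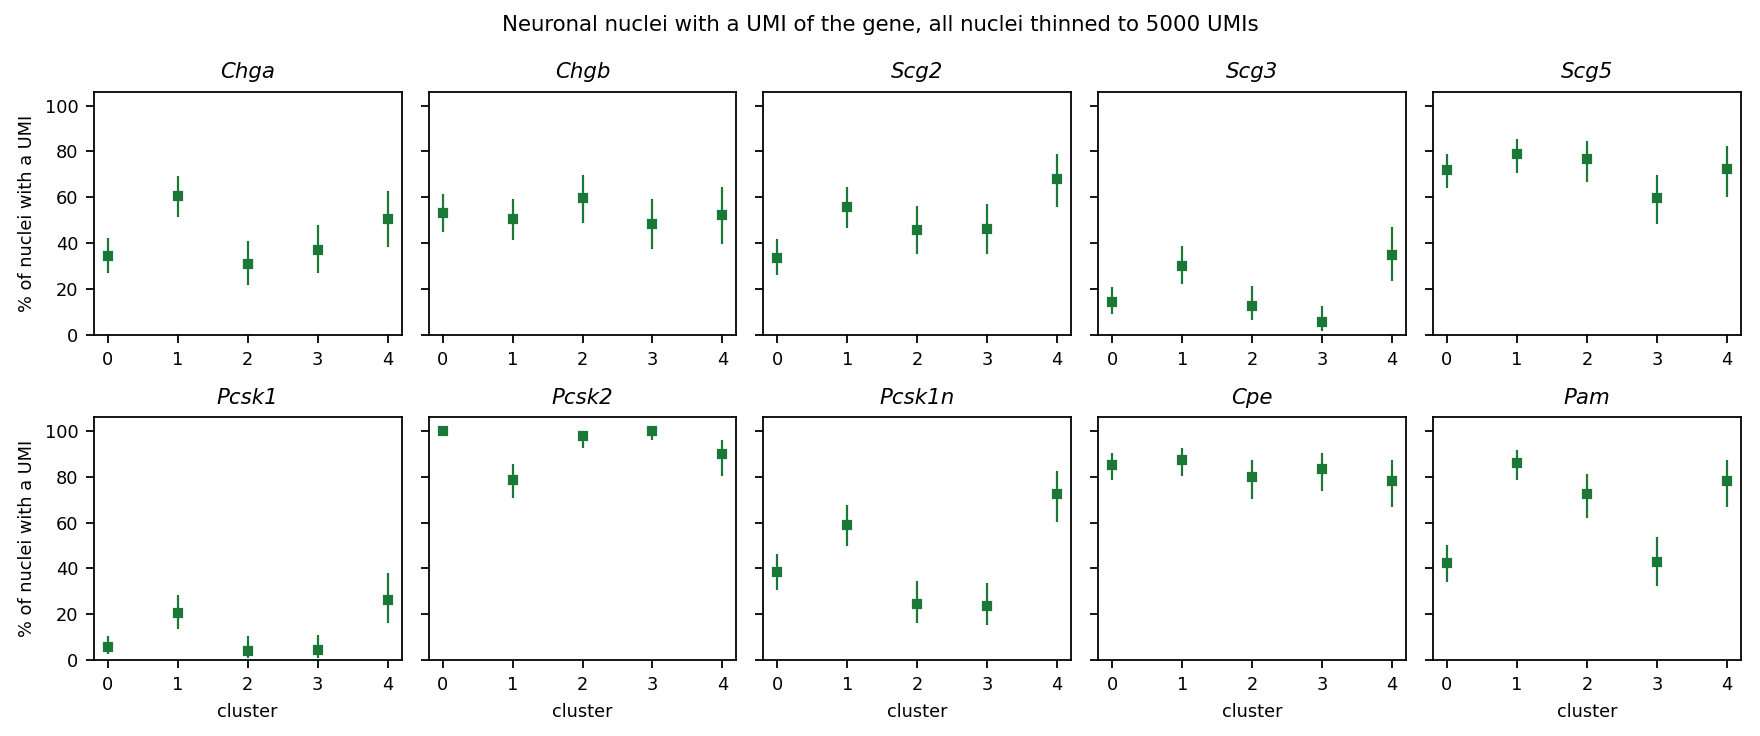
Percent of neuronal nuclei with at least 1 UMI of the gene (y axis) by cluster (x axis), all nuclei thinned to 5000 UMIs and the 3 libraries pooled. Squares are shares and lines 95% Clopper-Pearson intervals. Pam is at 85.8% in cluster 1 and 42.2% in cluster 0, and Cpe stays between 78.3% and 87.4%.

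Only 11 nuclei were annotated as non-neuronal, 9 of them from virgin females, with a median of 4780 UMIs against 11380 in neuronal nuclei. Of these 11, 1 had a UMI of Pcsk2, 1 of Chga and 1 of Pcsk1n, a share of 9.09% each, where 96.5%, 66.6% and 65.2% of neuronal nuclei had one before thinning. Chgb, Scg2 and Scg5 were each found in 18.2% of the non-neuronal nuclei, against 76.9%, 67.7% and 92.2% of neuronal nuclei. Pam was found in 36.4%, against 78.0%. No non-neuronal nucleus had a UMI of Pcsk1, which with 11 nuclei allows a share of up to 28.5%. Cpe was found in 72.7% of the non-neuronal nuclei, against 91.9% of neuronal nuclei, but its level went the other way. In CPM, a different measure from these shares, it had 1515 CPM (95% interval 1253 to 1815, from 117 UMIs) in the non-neuronal nuclei and 394 CPM in neuronal nuclei, with 4065 CPM in 3 nuclei annotated as astrocytes, of which 2 had a UMI, and 1232 CPM in 5 annotated as ependymal cells, all from virgin females. The 2 nuclei annotated as oligodendrocytes had no Cpe UMI, with an interval up to 820.3 CPM. Scg3 had 155 CPM (80.3 to 271, from 12 UMIs) in the 11 non-neuronal nuclei together and 43.1 CPM in neuronal nuclei.

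Over the 15 sums of library and cluster, the 45 pairs of members had a median Pearson r of 0.34 on log2(CPM + 10), and 34 were positive. These correlations are descriptions: sums of a library share its preparation, and sums of a cluster share the genes that defined it. Scg3 and Pcsk1n had the highest r, 0.91, followed by Chga and Pam with 0.80. The lowest were those of Pcsk2 with Scg2 (-0.86), Chga (-0.85) and Pam (-0.80). Spearman's rho over thinned nuclei was taken within each cluster of each library, and each pair of members was given its median. Over the same 45 pairs these medians lay between -0.12 and 0.15, with a median of 0.01. Single groups ran from -0.56 for Scg2 and Pcsk1 to 0.66 for Scg2 and Scg3. In counts this sparse these values are no finding. The variance of UMIs per thinned nucleus over their mean had a median over the sums of 1.84 for Pcsk2, 1.75 for Pam and 1.40 for Scg2, above the value of 1 that counting error alone gives, and lay between 0.965 and 1.23 for the other 7. Single sums stood higher: Pcsk1n reached 4.93 in cluster 1 of virgin females, where a nucleus held 18 of its UMIs, and Chgb reached 2.99 in cluster 0 of virgin females. Intervals based on counting error are too narrow where this ratio is above 1.

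Genes with the most similar pattern over the 15 sums were taken from the 2905 genes with at least 500 UMIs. For Pam they included Hs3st4 (r = 0.94) and Slit2 (0.94), and for Chga they were Shfl (0.94), Nwd2 (0.92) and Wwox (0.92). Scg2 was most like Ahcyl2 (0.94), Fgf14 (0.93) and Fam135b (0.92), and Scg3 was most like Gnas (0.96), A230057D06Rik (0.95) and Rabgap1l (0.94). Gnas, the gene of the stimulatory G protein alpha subunit and of several other transcripts, also stood near Pcsk1n (0.95), next to Vat1l (0.95) and Cacna2d2 (0.95). Gnas itself had 442 CPM in cluster 4 and 237 CPM in cluster 3. Pcsk2 was most like 4930590L20Rik (0.96), Slc1a2 (0.95) and Mef2a (0.95), and Slc1a2 had 424 CPM in cluster 0 and 52.7 CPM in cluster 1. The flat members had looser partners: Lrfn5 (0.80), Rnasek (0.78) and Gm32250 (0.76) for Chgb, Kdm5a (0.86), Wdr70 (0.85) and Mapk8ip3 (0.80) for Scg5, and Evi5 (0.77), Tax1bp1 (0.74) and Tiam1 (0.72) for Cpe. Pcsk1 was most like Sdha (0.89), Pced1b (0.87) and Parp8 (0.84).

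Between libraries, mothers had less Pcsk1n and Chgb than either other group, and virgin males had less Pcsk1 than virgin females. Virgin males had more Scg2 than either other group in summed UMIs and in nuclei thinned to 5000 UMIs. This did not hold with all nuclei, shallower ones included, given the same weight. The 10 genes took 0.281% of neuronal UMIs in mothers, 0.287% in virgin males and 0.318% in virgin females. The comparisons of mothers and of virgin males share the library of virgin females, so they are not independent. Ratios carry exact 95% intervals of counting error that treat UMIs as independent. Nothing in these data gives the spread between mice, so a ratio whose interval leaves out 1 describes these libraries. The sum of the LHb markers was 1088 CPM in mothers, 1534 CPM in virgin males and 1361 CPM in virgin females, and that of the thalamic markers was 6437, 6536 and 5827 CPM. Their part in the ratios was not tested, and values within clusters are given below for some of the genes.

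**Figure D3:**
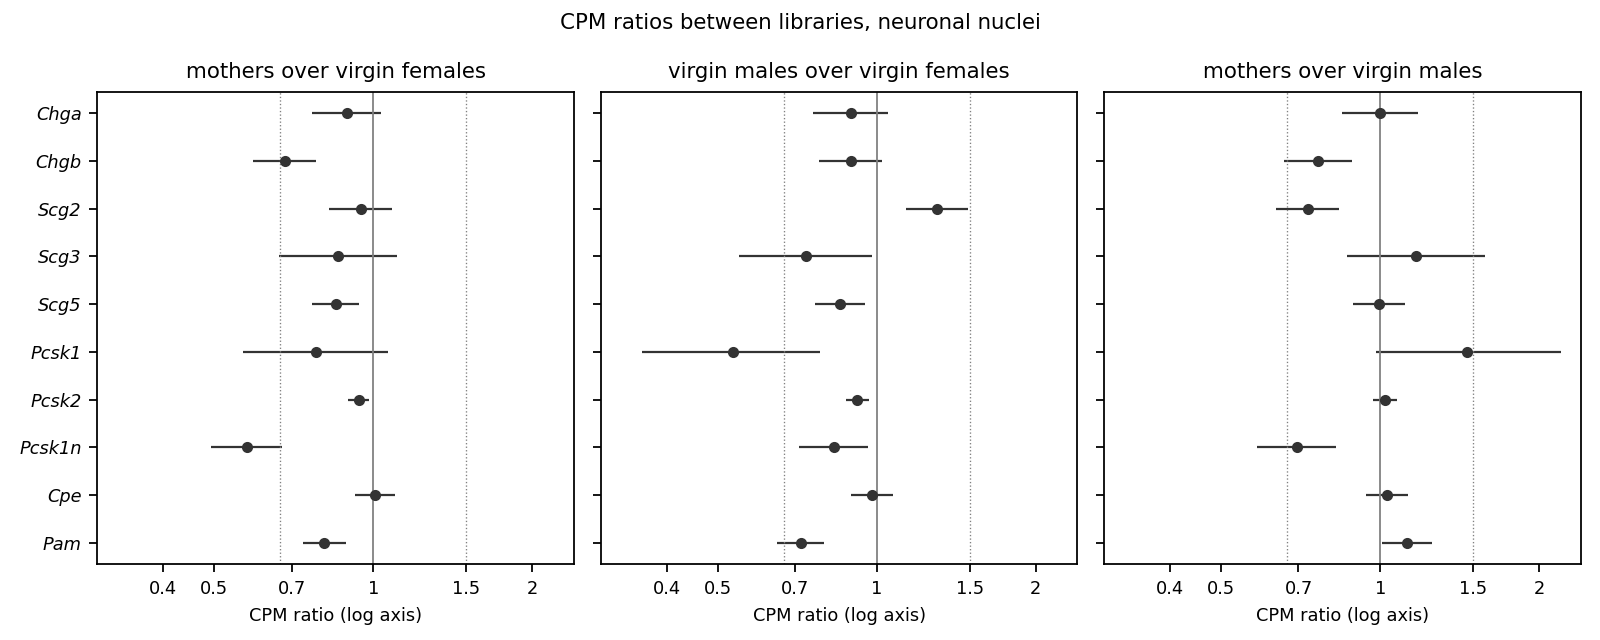
Ratio of CPM between libraries (x axis, log scale) for each gene (y axis), neuronal nuclei. Points are ratios with exact 95% intervals of counting error, and dotted lines mark 1.5-fold in either direction. Pcsk1n is at 0.576 in mothers over virgin females, Pcsk1 at 0.534 in virgin males over virgin females, and Cpe is near 1 in all 3.

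In mothers over virgin females, 9 of the 10 ratios were below 1, where 51.5% of 10388 genes with at least 50 UMIs were. Intervals lay below 1 for 5 members and above 1 for none, against 8.67% and 8.05% of those genes. Among the 2041 genes with at least 500 UMIs in the pair, whose intervals are narrower, 16.8% lay below 1 and 16.2% above, and all 5 of the members were in this class, with 8 members in all. A single member was at least 1.5-fold lower, where 3.66% of genes were, and none was 1.5-fold higher, where 3.83% were, counts too small to say anything of the set. At a lower threshold of 0.32 on the log2 scale, 3 members were past it in either direction, where 26.3% of genes were. The median log2 ratio was -0.23 over the members and -0.01 over all genes.

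Pcsk1n had 95.5 CPM in mothers (84.2 to 108) and 166 CPM in virgin females (151 to 182), a ratio of 0.576 (0.492 to 0.672). It was found in 34.8% of thinned nuclei of mothers and 48.3% of those of virgin females, and in 59.2% and 71.1% before thinning. Chgb had 131 CPM in mothers (118 to 146) and 193 CPM in virgin females (177 to 210.0), a ratio of 0.680 (0.593 to 0.780), and was in 42.8% and 59.3% of thinned nuclei. Its log2 ratio, -0.56, was -0.81 in thinned nuclei, past 1.5-fold, and -0.35 with each nucleus given the same weight. Thinned to 2500 UMIs, the shares of nuclei with Chgb were 29.9% in mothers and 32.8% in virgin females, a much smaller gap. Pam followed with 299.8 and 372 CPM, a ratio of 0.807 (0.735 to 0.886), although its thinned shares were 62.6% and 65.1%. Scg5 had 256 and 302 CPM (0.849; 0.766 to 0.940), and Pcsk2 had 1288 and 1373 CPM (0.938; 0.896 to 0.983). The other 5 intervals, again with mothers first and virgin females after, held 1. Chga had 122 and 137 CPM (0.891; 0.766 to 1.04), Scg2 had 150.1 and 159 CPM (0.947; 0.824 to 1.09), Scg3 had 42.4 and 49.3 CPM (0.859; 0.663 to 1.11) and Pcsk1 had 27.5 and 35.3 CPM (0.778; 0.567 to 1.07). Cpe had 398 and 395 CPM (1.01; 0.925 to 1.10).

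Within clusters, both leading differences kept their direction. Pcsk1n was lower in mothers than in virgin females in 5 of 5 clusters, with ratios of 0.496 (0.341 to 0.711) in cluster 0 and 0.578 (0.438 to 0.755) in cluster 1, and of 0.775, 0.957 and 0.805 in clusters 2, 3 and 4. Chgb was lower in 5 of 5 as well, from 0.609 (0.453 to 0.817) in cluster 2 and 0.643 (0.493 to 0.834) in cluster 0 to 0.884 in cluster 1. The intervals of Pcsk1n in clusters 2, 3 and 4, and of Chgb in clusters 1, 3 and 4, held 1. Of genes with at least 500 UMIs in the pair, 4.9% were lower in all 5 clusters. Mothers held 19.4% of their neuronal nuclei in cluster 1, the cluster with most Pcsk1n, where virgin females held 34.8%. With every cluster given the same weight the Pcsk1n ratio was 0.677, which is no longer past 1.5-fold, and that of Chgb was 0.710.

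Virgin males over virgin females gave 9 ratios below 1 again (53.9% of 10024 genes with at least 50 UMIs), with intervals below 1 for 6 members and above 1 for Scg2 alone, against 7.86% and 6.58% of those genes. For genes with at least 500 UMIs in the pair, these shares were 13.2% and 15.8%, and 8 members were in that class, 4 of the 6 lower ones and Scg2 among them. Pcsk1 had 18.8 CPM in virgin males (13.5 to 25.7, from 40 UMIs) and 35.3 CPM in virgin females (28.6 to 43.1, from 96 UMIs). Its ratio, 0.534 (0.359 to 0.779), was the only one past 1.5-fold lower, where 4.58% of genes were, and no member was 1.5-fold higher, where 2.98% were. At 0.32 on the log2 scale, 4 members were past it, where 25.5% of genes were. After thinning, the Pcsk1 log2 ratio was -0.55, against -0.91 before, and so no longer past 1.5-fold. The median log2 ratio of the members was -0.20, and that of all genes -0.03.

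Pam had 267 CPM in virgin males and 372 CPM in virgin females, a ratio of 0.718 (0.646 to 0.796). It was lower in virgin males in 4 of 5 clusters. With every cluster given the same weight its ratio was 0.819, outside that interval. Scg3 had 36.3 and 49.3 CPM, a ratio of 0.736 (0.549 to 0.981), and its log2 ratio, -0.44, was -0.99 in thinned nuclei and -0.62 with each nucleus given the same weight, both past 1.5-fold. Pcsk1n had 138 and 166 CPM (0.829; 0.713 to 0.963), Scg5 had 257 and 302 CPM (0.853; 0.764 to 0.951) and Pcsk2 had 1261 and 1373 CPM (0.919; 0.874 to 0.966). Chga (122 and 137 CPM), Chgb (172 and 193 CPM) and Cpe (387 and 395 CPM) had ratios of 0.893, 0.892 and 0.980. With every cluster given the same weight, Scg3, Pcsk1n, Scg5 and Pcsk1 stood at 0.760, 0.928, 0.856 and 0.539. Pcsk1 was lower in virgin males in 4 of 5 clusters, and Scg3, Pcsk1n and Scg5 in 3 of 5. No interval of Pcsk1n within a cluster left out 1.

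Scg2 was the exception, with 206 CPM in virgin males (187 to 226) and 159 CPM in virgin females (144 to 174), a ratio of 1.30 (1.13 to 1.49). It was higher in virgin males in 5 of 5 clusters, where 4.19% of genes with at least 500 UMIs were, with ratios of 1.81 (1.29 to 2.58) in cluster 3 and 1.69 (1.13 to 2.52) in cluster 2 and between 1.05 and 1.20 in the others. The direction differed between settings. With each of all nuclei given the same weight, the log2 ratio of virgin males over virgin females was -0.022, against 0.38 for summed UMIs. In nuclei thinned to 5000 UMIs, which also weigh the same but leave out shallower nuclei, it was 0.42. The part of the shallower nuclei in this was not tested. Thinned to 5000 UMIs, 54.0% of nuclei of virgin males and 44.8% of those of virgin females had a UMI of Scg2, at 2500 UMIs 37.5% and 35.0% did, and before thinning 66.2% and 70.1% did. Pcsk2 was lower in virgin males in 5 of 5 clusters, where 5.02% of genes with at least 500 UMIs were, but only by ratios of 0.840 to 0.983.

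Mothers over virgin males had ratios evenly split, 5 below 1, where 47.3% of 9990 genes were, and a median log2 ratio of 0.01 beside 0.02 over all genes. No member was 1.5-fold higher or lower, where 4.25% and 3.01% of genes were, while 4 were past 0.32 on the log2 scale, where 26.1% were. Intervals lay below 1 for 3 members and above 1 for Pam, against 6.48% and 7.51% of genes with at least 50 UMIs and 15.1% and 13.9% of those with at least 500. Pcsk1n had 95.5 CPM in mothers and 138 CPM in virgin males, a ratio of 0.694 (0.585 to 0.824). It was lower in mothers in 4 of 5 clusters, and cluster 3 stood at 1.12. Its log2 ratio, -0.53, was -0.71 in thinned nuclei, past 1.5-fold, and -0.41 with each nucleus given the same weight. Chgb had 131 and 172 CPM, a ratio of 0.763 (0.657 to 0.885), and was lower in mothers in 5 of 5 clusters, where 4.99% of genes with at least 500 UMIs were. Its log2 ratio of -0.39 was -0.64 in thinned nuclei, past 1.5-fold as well, and -0.14 with each nucleus given the same weight. At 2500 UMIs, 29.9% of nuclei of mothers and 33.5% of those of virgin males had a UMI of Chgb, where at 5000 UMIs 42.8% and 56.9% did.

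Scg2 had 150.1 CPM in mothers and 206 CPM in virgin males, a ratio of 0.729 (0.635 to 0.837). It was lower in mothers in 4 of 5 clusters, by 0.477 (0.350 to 0.644) in cluster 3. With each of all nuclei given the same weight the direction turned, with a log2 ratio of 0.16 against -0.46. In nuclei thinned to 5000 UMIs the direction stayed, with a log2 ratio of -0.42. Pcsk1 had 27.5 and 18.8 CPM (1.46; 0.980 to 2.20), and its log2 ratio of 0.55 passed 1.5-fold with each nucleus given the same weight (0.80) and with each cluster given the same weight (0.67). Pam had 299.8 and 267 CPM (1.12; 1.01 to 1.254), and Scg3 had 42.4 and 36.3 CPM (1.17; 0.867 to 1.58), which in thinned nuclei was 0.74 on the log2 scale, past 1.5-fold, against 0.22. Ratios of Chga, Scg5, Pcsk2 and Cpe lay between 0.995 and 1.03.

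**Figure D4:**
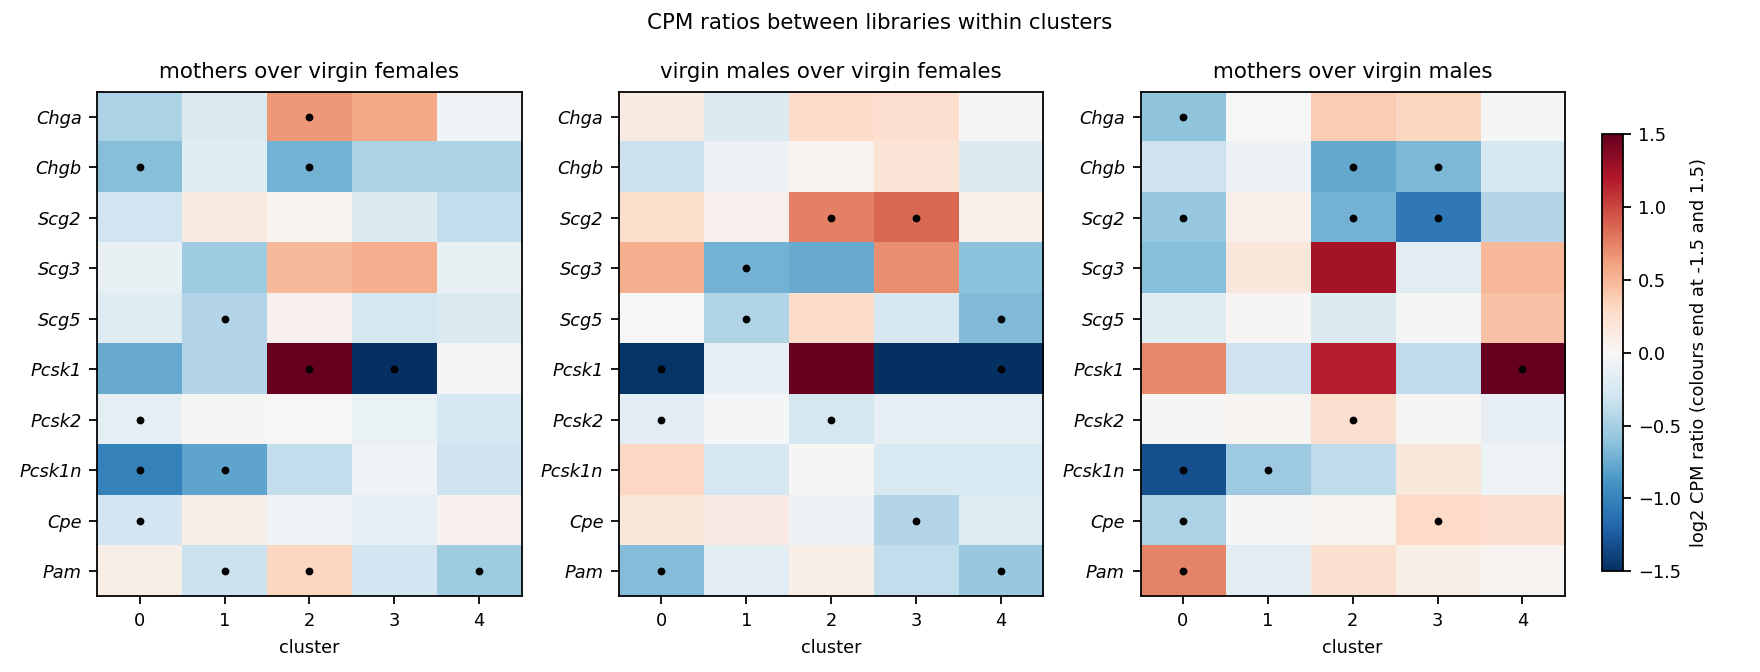
Log2 CPM ratio between libraries (colour, red higher and blue lower in the library named first) for each gene (rows) in each cluster (columns). Dots mark ratios whose 95% interval of counting error leaves out 1. Chgb and Pcsk1n are blue in all 5 clusters in mothers over virgin females, Scg2 is red in all 5 in virgin males over virgin females, and the deep colours of Pcsk1 rest on few UMIs.

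Related genes of the pathway were read from 4 lists. Their ratios between libraries are of whole libraries, which hold the clusters in different shares. Of 45 peptide precursors, 36 had a UMI, but only 6 had at least 50 UMIs in mothers and virgin females together. Nppc, the precursor of C-type natriuretic peptide, had 4.83 CPM in mothers, against 15.5 CPM in virgin females, a ratio of 0.313 (0.154 to 0.594), and 3.77 CPM in virgin males, a ratio to virgin females of 0.244 (0.0989 to 0.526). Igf1, a growth factor precursor, had 20.4 CPM in mothers, against 32.0 CPM in virgin males (0.638; 0.439 to 0.924) and 37.9 CPM in virgin females (0.539; 0.381 to 0.755). Nucb2, the nesfatin precursor, had 14.6 CPM in virgin males and 22.8 CPM in virgin females (0.640; 0.402 to 1.00). The count of precursors past 1.5-fold was 0 higher and 2 lower of 6 in mothers over virgin females, 0 and 2 of 6 in virgin males over virgin females, and 0 and 1 of 5 in mothers over virgin males. Of all genes measured, 3.66%, 4.58% and 3.01% were lower by that fold in these pairs, and no difference between a list and other genes was tested. Both precursors with at least 500 UMIs differed at least 2-fold over clusters, where 35.3% of 2905 genes did. Cck, the cholecystokinin precursor, had 283 ± 62.3 CPM in cluster 2 and 189 ± 51.6 CPM in cluster 3, and 10.6 ± 3.66 CPM in cluster 1. Vgf, a granin-like precursor, had 142 ± 7.60 CPM in cluster 3 and 50.3 ± 16.4 CPM in cluster 0.

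Of 24 other processing enzymes, 17 were measured in each pair of libraries. None was past 1.5-fold in mothers over virgin females, where 3.83% of genes were higher and 3.66% lower by that fold. In virgin males over virgin females 1 was higher and 1 lower, where 2.98% and 4.58% of genes were. In mothers over virgin males 1 was higher and 0 lower, where 4.25% and 3.01% were. Tpst2, a tyrosine sulfotransferase, had 14.6 CPM in virgin males and 9.56 CPM in virgin females (1.53; 0.877 to 2.68). Spcs3, a signal peptidase subunit, had 24 and 37.9 CPM (0.634; 0.444 to 0.895), and Spcs1, another, had 24.9 CPM in mothers and 16.5 CPM in virgin males (1.51; 0.989 to 2.34). Over clusters, 2 of the 3 enzymes with at least 500 UMIs differed at least 2-fold, where 35.3% of 2905 genes did. Pcsk5, a convertase of the same family as Pcsk1 and Pcsk2, had 282 ± 49.7 CPM in cluster 0 and 164 ± 73.5 CPM in cluster 4, and at most 16.9 ± 13.2 CPM in clusters 1, 2 and 3. Ctsb, the lysosomal protease cathepsin B, had 130 ± 8.87 CPM in cluster 1 and 50.3 ± 12.7 CPM in cluster 3.

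Genes of dense-core vesicle formation and release numbered 36, of which 31 were measured between libraries. In mothers over virgin females 2 were higher and 2 lower past 1.5-fold, where 3.83% and 3.66% of genes were. Syt9, a calcium sensor of vesicle release, had 158 and 105 CPM (1.501; 1.29 to 1.75). Its level was highest in clusters 3 and 2 (289 and 208 CPM), which held 17.4% and 22.9% of neuronal nuclei of mothers. The same clusters held 9.09% and 13.9% of those of virgin females. The part of this mix in the Syt9 ratio was not tested. Vps52, a subunit of a tethering complex, had 17.1 and 10.7 CPM (1.60; 0.985 to 2.64). Rab3b, a vesicle GTPase, had 8.17 and 14.3 CPM (0.570; 0.322 to 0.985), and the synaptotagmin Syt10 had 12.3 and 18.4 CPM (0.667; 0.416 to 1.06). None was past 1.5-fold in virgin males over virgin females, where 2.98% of genes were higher and 4.58% lower by that fold. In mothers over virgin males 1 was higher, Arfip2 of the trans-Golgi network with 19.7 and 11.3 CPM (1.74; 1.06 to 2.95). Another 3 were lower: Rab3b (0.457), Syt10 (0.578) and Rph3al, a Rab effector (0.611). Of all genes measured in that pair, 4.25% were higher and 3.01% lower by that fold. Median log2 ratios of this list were -0.07, 0.03 and -0.02 for mothers over virgin females, virgin males over virgin females and mothers over virgin males.

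Over clusters, 6 of the 14 vesicle genes with at least 500 UMIs differed at least 2-fold, where 35.3% of 2905 genes did. Syt7, a calcium sensor of slow release, had 706 ± 60.9 CPM in cluster 3 and 643 ± 57.2 CPM in cluster 2, where clusters 1 and 4 had 134 ± 34.1 and 97.4 ± 29.5 CPM. Syt9 had 289 ± 9.69 CPM in cluster 3 and 50.2 ± 9.03 CPM in cluster 0. Rab3c had 601 ± 80.5 CPM in cluster 0 and 245 ± 45.7 CPM in cluster 4, and Syt4, a synaptotagmin found on dense-core vesicles, had 240.3 ± 51.2 CPM in cluster 0 and 104 ± 25.4 CPM in cluster 3. Syt17 had 150.0 ± 23.9 CPM in cluster 0 and 71.1 ± 16.8 CPM in cluster 3, and Rph3a, an effector of Rab3, had 180 ± 29.7 CPM in cluster 2 and 45.2 ± 2.20 CPM in cluster 1.

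**Figure D5:**
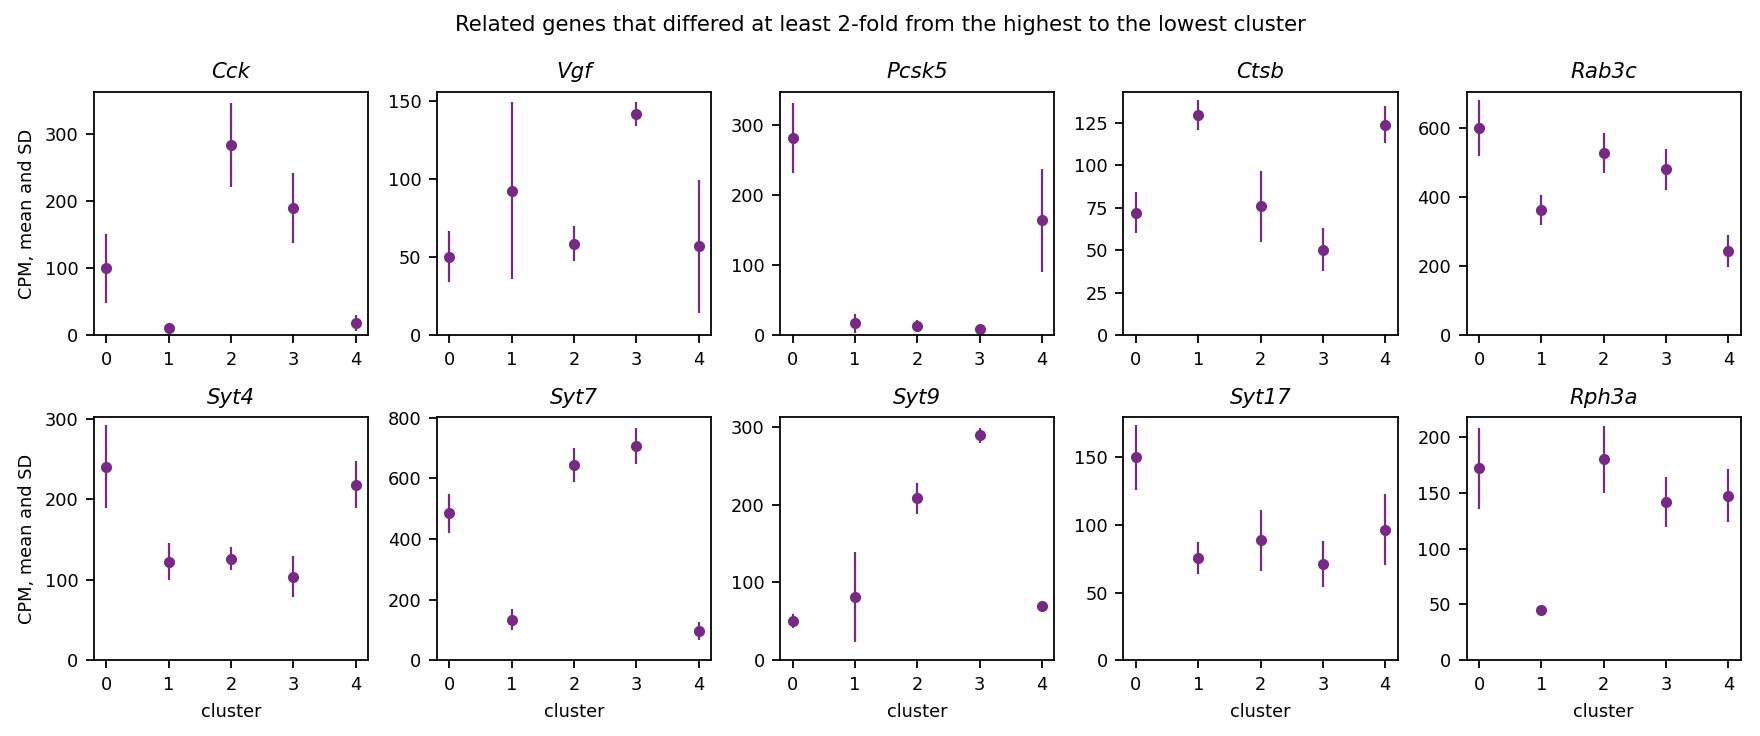
CPM (y axis, own scale for each gene) by cluster (x axis) of the genes of the related lists that differed at least 2-fold from the highest to the lowest cluster, mean and SD over 3 libraries. Pcsk5 is high in clusters 0 (282 CPM) and 4 (164 CPM), Syt7 in clusters 3, 2 and 0, and Ctsb in clusters 1 and 4.

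Peptidases that degrade released peptides numbered 16, of which 11 were measured in mothers over virgin females. In that pair 1 was higher and 2 lower past 1.5-fold, where 3.83% and 3.66% of genes were. In virgin males over virgin females 1 of 10 was lower, where 4.58% of genes were. In mothers over virgin males 2 of 11 were lower, where 3.01% were. Trhde, which cleaves thyrotropin-releasing hormone, had 26.4 CPM in mothers, against 52.3 CPM in virgin males (0.504; 0.369 to 0.686) and 79.8 CPM in virgin females (0.330; 0.249 to 0.434), and virgin males over virgin females stood at 0.655 (0.516 to 0.827). Mme, the gene of neprilysin, had 17.5 CPM in mothers, against 30.1 CPM in virgin males (0.579; 0.389 to 0.857) and 38.6 CPM in virgin females (0.452; 0.313 to 0.643). Dpp4, a dipeptidyl peptidase, had 13.0 CPM in mothers, against 8.09 CPM in virgin females (1.61; 0.916 to 2.88). None of the 4 peptidases with at least 500 UMIs differed 2-fold over clusters, where 35.3% of 2905 genes did.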

How the data were processed

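The authors deposited raw UMI counts of each gene in each nucleus (3 libraries in 1 table), and a metadata table with each nucleus's group, totals, percent of mitochondrial UMIs, class and cluster, per the file headers. Cell Ranger 5.0.1 and GRCm38 (mm10) are named in the submitters' processing notes. The sources used here do not say whether intronic reads were counted or how doublets and nuclei were filtered. Any intronic counting adds UMIs to long genes, so levels of different genes are not compared.

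Nuclei were matched between tables on total UMIs plus number of detected genes, a combination unique for 603 of 603 nuclei. The deposited percent of mitochondrial UMIs then matched with a largest difference of 0. Neuronal UMIs were summed per library, or per library and cluster, and scaled to CPM. Intervals are exact at 95%: Poisson for CPM, conditional binomial for ratios, Clopper-Pearson for shares. Pairs of libraries used a 1.5-fold threshold and genes with 50 or more UMIs over both. Clusters used genes with at least 500 UMIs and 1.5-fold or 2-fold. With 1 library per group no test was run, and the computation was checked on simulated counts. Named genes were the 10 members, the 3 genes most like each by Pearson r of log2(CPM + 10) over 15 sums, and related-list genes past a threshold. Some results of this rule are not reported here. Members and lists were chosen with earlier results of these data known. Alternatives were other scalings (edgeR 4.0.16 TMM, median-of-ratios), equal weight per nucleus or cluster, thinning, left-out nuclei or libraries, and other thresholds. Tools were Python 3.11.15, numpy 2.4.6, pandas 2.3.3, scipy 1.17.1 and R 4.3.3.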

Additional observations from a re-analysis of the deposited data

Results flagged for a closer look

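For 3 genes, the ratio between libraries pointed in opposite directions in different clusters, with both intervals of counting error leaving out 1. The difference between clusters was not tested. In mothers over virgin females, Pcsk1 had a ratio of 11.0 (95% interval 1.70 to 464) in cluster 2, from 15 UMIs in mothers and 1 in virgin females, and of 0.234 (0.0400 to 0.975) in cluster 3, from 3 and 8 UMIs. Pam had a ratio of 1.254 (1.01 to 1.57) in cluster 2, where mothers had 361 CPM and virgin females 288 CPM, and of 0.799 (0.685 to 0.929) in cluster 1 and 0.692 (0.542 to 0.886) in cluster 4. In mothers over virgin males, Cpe had a ratio of 1.23 (1.02 to 1.49) in cluster 3 and of 0.720 (0.591 to 0.877) in cluster 0.

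Outside the neuronal nuclei, 2 of the genes had a higher CPM in the 11 nuclei annotated as non-neuronal. Cpe had 1515 CPM there and 394 CPM in neuronal nuclei, and Scg3 had 155 CPM and 43.1 CPM. Nearly all of those nuclei, 9 of 11, came from virgin females, so groups could not be compared.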

How the results depend on the processing

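Of the ratios between libraries under the alternatives, 224 moved by less than counting error, 14 moved by more and 2 whose interval left out 1 turned direction, both of Scg2 with each nucleus given the same weight: -0.022 on the log2 scale in virgin males over virgin females and 0.16 in mothers over virgin males. Another 16 values turned sign where the interval held 1, in Chga, Scg2, Scg5, Pcsk1 and Cpe, from ratios of at most 0.36 in size on the log2 scale. Of cluster ratios, 73 stayed and 7 moved, and of share differences 24 stayed and 6 moved, with 7 sign changes where both intervals overlapped. Members past 1.5-fold in mothers over virgin females numbered 1, and 2 in thinned nuclei, 0 with clusters weighted equally and 3 at a lower threshold of 0.32 on the log2 scale. In virgin males over virgin females there was 1, and 2 with nuclei weighted equally, 0 at a minimum of 500 UMIs and 4 at the lower threshold. In mothers over virgin males there were 0, and 1 with nuclei weighted equally, 3 in thinned nuclei, 1 without the 5% of nuclei with most UMIs, 1 with clusters weighted equally and 4 at the lower threshold. Ratios below 1 there numbered 3 with clusters weighted equally, against 5. At a minimum of 2000 UMIs, 2 members differed 2-fold over clusters, against 5, and member and cluster pairs past 1.5-fold were 3 above and 4 below, against 7 and 8. At 50 UMIs 11 pairs were above. These changes of minimum follow from which genes enter. The cause of the others was not tested. Leaving out each library in turn kept 5 members past 2-fold over clusters, and leaving out the 5 nuclei of virgin males with at least 10 Ttr UMIs, an alternative chosen after seeing the data, moved no count. With a minimum of 1 UMI, genes past 1.5-fold in any pair of libraries numbered 32, 8 and 8 among peptide precursors, other enzymes and peptidases, against 3 each. TMM and median-of-ratios scaling kept every member's count above and below 1. Depth limits Pcsk1 and Scg3 most, with 210 and 325 UMIs. No paired analysis was possible because each group is a single library.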
